A study of Mus musculus with 30 samples.

Results

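The regions described here are places at the ends of protein-coding genes where the list specific to Mir137 knockout (cKO) microglia holds serine 5-phosphorylated RNA polymerase II (Ser5P), and where no list of total polymerase or of H3K27ac, a mark of active chromatin, holds a region. They were chosen by a rule on the deposited region lists. A region of the cKO-specific Ser5P list was kept where it overlapped no region of the cKO or cWT list of total polymerase (Pol II) and none of the cKO or cWT list of H3K27ac. It also had to overlap the 2 kb on either side of an end of an mm10 RefSeq protein-coding gene. The rule kept 1635 of the 6163 regions of the cKO Ser5P list (26.5%, 95% exact Clopper-Pearson interval 25.4 to 27.7%), of 22399 regions in the 10 lists of the study. Since the rule used the Ser5P, Pol II and H3K27ac lists, membership in those lists is given as a description. Of the 6163 regions, 2561 overlapped Pol II, 846 overlapped H3K27ac and 3352 lay at a gene end.

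Microglia are the resident macrophages of the brain. The cells were sorted from C57BL/6J mice 8 weeks old and profiled by CUT&Tag, a method where a transposase, guided by an antibody, cuts the DNA beside the antibody's target. Mice of the cWT group were Mir137+/+;Tmem119-CreERT2 and mice of the cKO group Mir137loxP/loxP;Tmem119-CreERT2. Tamoxifen was given on 7 consecutive days at 7 to 8 weeks of age. Tmem119 is a microglial marker, its CreERT2 allele recombines DNA once tamoxifen is present, and both groups carried the allele and received the drug. The labels give 30 samples, 3 replicates for each of 2 genotypes and 5 antibodies (Ser5P, Pol II, H3K4me3, H3K27ac and Pu.1). The series text speaks of n = 4 mice beside 3 replicates, and about 100000 cells were used per genotype. The extract protocol lists the Ser5P, Pol II and H3K27ac antibodies under the same catalogue number, and those to Pu.1 and H3K4me3 under another. Whether those antibodies were distinct was not tested.

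The large subunit of RNA polymerase II ends in a tail of repeats that is phosphorylated as transcription proceeds. The kinase module of TFIIH marks serine 5 at the start of genes, where NELF and DSIF can hold the polymerase until CDK9, within P-TEFb, releases it into the gene. H3K4me3 lies on the nucleosomes around active starts, H3K27ac marks active promoters and enhancers, and Pu.1 is the factor, encoded by Spi1, that binds much of the microglial enhancer repertoire. The microRNA miR-137 pairs with messenger RNAs through its seed, bases 2 to 8 of the mature strand, and its sequence (RefSeq GRCm38.p6) is shown because its gene is the one removed, with the seed in capitals.
mmu-miR-137-3p: uUAUUGCUuaagaauacgcguag

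The lists give each region a deposited signal, a p-value and a name (primary or secondary), all pooled over replicates. No value per replicate was analysed here, so nothing below is set against the spread between mice. Intervals cover counting error over regions only, and the regions of a list are not independent replicates. Read depth is unknown. How a region came to be called specific to a genotype, and what its p-value tests, are not stated by the labels or files. The regions described had a median width of 398 bp (149 to 2166 bp) and a median signal of 11.8 (quartiles 9.04 and 14.3, highest 24.0). The 1717 cKO Ser5P regions at gene ends that did overlap Pol II or H3K27ac had a median width of 365 bp and a median signal of 11.5.

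The promoters below carry the main results. Each is the 250 bases before a RefSeq start (GRCm38.p6, the mm10 assembly), read 5′ to 3′ on the gene's strand, and each overlaps 1 of the regions. Capitals mark letters of the searched motifs described further on. Cox7c (a cytochrome c oxidase subunit, chr13:86046796-86047045, minus strand) and Ddx59 (an RNA helicase, chr1:136415021-136415270, plus strand) are shown because their regions had 2 of the 5 highest signals.
Cox7c: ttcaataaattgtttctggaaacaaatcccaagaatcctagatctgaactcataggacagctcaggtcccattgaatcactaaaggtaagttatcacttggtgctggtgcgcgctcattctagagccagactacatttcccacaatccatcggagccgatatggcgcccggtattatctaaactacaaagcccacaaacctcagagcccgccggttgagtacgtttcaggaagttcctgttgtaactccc
Ddx59: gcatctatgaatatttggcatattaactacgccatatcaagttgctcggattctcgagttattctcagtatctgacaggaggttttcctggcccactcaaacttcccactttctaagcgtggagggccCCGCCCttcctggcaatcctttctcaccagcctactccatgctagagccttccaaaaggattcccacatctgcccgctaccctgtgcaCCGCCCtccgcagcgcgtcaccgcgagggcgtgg
Homer1 (a scaffold protein of synapses, chr13:93303507-93303756, plus strand) had the second lowest deposited p, and Ell2 (a subunit of the super elongation complex, chr13:75707234-75707483, plus strand) is shown for the group of genes that control pausing.
Homer1: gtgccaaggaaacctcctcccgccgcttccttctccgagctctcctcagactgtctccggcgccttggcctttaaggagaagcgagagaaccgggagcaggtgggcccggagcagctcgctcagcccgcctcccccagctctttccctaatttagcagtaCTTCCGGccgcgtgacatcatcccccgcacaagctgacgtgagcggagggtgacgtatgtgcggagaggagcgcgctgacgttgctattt
Ell2: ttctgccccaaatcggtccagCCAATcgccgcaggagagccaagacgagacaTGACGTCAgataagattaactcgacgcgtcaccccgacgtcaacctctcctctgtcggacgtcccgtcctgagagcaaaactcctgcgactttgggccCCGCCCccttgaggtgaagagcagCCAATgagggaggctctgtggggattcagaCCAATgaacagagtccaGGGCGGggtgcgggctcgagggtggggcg
Sf3b2 (an SF3B splicing factor, chr19:5295458-5295707, minus strand) and Slc25a28 (the mitochondrial iron carrier mitoferrin-2, chr19:43674882-43675131, minus strand) are shown because the region also overlapped an H3K4me3 region, of the cKO list for Sf3b2 and of the cWT list for Slc25a28.
Sf3b2: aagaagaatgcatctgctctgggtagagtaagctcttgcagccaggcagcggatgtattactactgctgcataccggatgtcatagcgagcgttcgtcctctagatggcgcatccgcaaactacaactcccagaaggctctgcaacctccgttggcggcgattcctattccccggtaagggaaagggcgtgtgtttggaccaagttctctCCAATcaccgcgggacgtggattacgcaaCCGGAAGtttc
Slc25a28: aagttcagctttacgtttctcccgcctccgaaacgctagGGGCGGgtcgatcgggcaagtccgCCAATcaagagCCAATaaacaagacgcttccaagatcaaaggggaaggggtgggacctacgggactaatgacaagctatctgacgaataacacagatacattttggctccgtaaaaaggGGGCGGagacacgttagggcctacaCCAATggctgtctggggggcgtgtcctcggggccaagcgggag
Sertad2 (a transcriptional co-regulator, chr11:20542916-20543165, plus strand) and C1qc (a chain of the complement protein C1q, made in the brain by microglia, chr4:136892915-136893164, minus strand) are shown because the region also overlapped a cKO Pu.1 region.
Sertad2: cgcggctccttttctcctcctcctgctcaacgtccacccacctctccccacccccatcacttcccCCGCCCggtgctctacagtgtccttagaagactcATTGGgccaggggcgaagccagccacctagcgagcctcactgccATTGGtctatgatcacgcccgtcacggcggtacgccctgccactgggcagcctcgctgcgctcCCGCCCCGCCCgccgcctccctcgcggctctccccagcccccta
C1qc: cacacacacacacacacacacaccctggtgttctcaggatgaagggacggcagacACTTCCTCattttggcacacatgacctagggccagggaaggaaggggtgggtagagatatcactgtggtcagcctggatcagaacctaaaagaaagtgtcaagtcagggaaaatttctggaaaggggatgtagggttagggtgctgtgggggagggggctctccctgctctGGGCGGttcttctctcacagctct
No letters are in capitals for Cox7c, whose printed bases held none of the searched motifs. C1qc was the one of these 8 with the searched Pu.1 core. Its promoter is also poor in CpG, with an observed to expected ratio of 0.144 over the 300-base window, against 0.768 to 0.967 in the other seven.

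Most of the regions lay on gene starts. Starts were taken from the RefSeq promoter table, which lists a start for 17492 of the 21887 protein-coding genes. It held no start on chromosome 18, so the 48 regions there were counted as not at a start. The share at starts may therefore be an undercount. Of the 1635 regions, 1214 (74.3%, interval 72.1 to 76.4%) lay within 2 kb of a listed start. Its 300-base promoter window (250 bases before to 50 after) was overlapped by 926 (56.6%). The 2 shares were 45.2 and 34.1% over the whole cKO Ser5P list. They were 76.9 and 59.1% for gene-end regions with Pol II or H3K27ac. The rule required a gene end, so these shares partly follow from it. The midpoint was within 250 bp of the nearest start in 837 regions. Among the 1207 with a midpoint within 2 kb, the median position was 74 bp into the gene and 62.1% lay on the gene's side of the start. The gene-end Ser5P regions that overlapped Pol II or H3K27ac lay at much the same places, with a median of 89 bp into the gene and 65.5% on the gene's side. Midpoints fell inside a coding gene for 1208 regions (73.9%), against 68.2% of the whole list and 76.6% of gene-end regions with Pol II or H3K27ac.

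**Figure D1:**
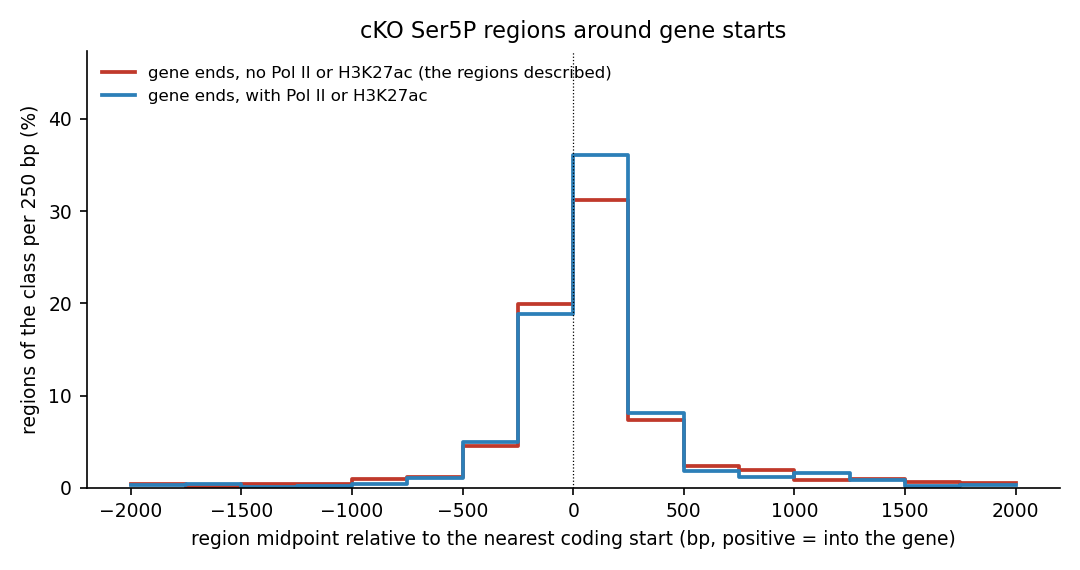
Position of region midpoints relative to the nearest RefSeq coding start, in bp, as the percentage of each class per 250 bp, for gene-end cKO Ser5P regions without (red) and with (blue) Pol II or H3K27ac. Both classes peak in the first 250 bp of the gene, and 837 of the 1635 regions without Pol II or H3K27ac have midpoints within 250 bp of a start.

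The 10 highest signals lay at gene starts wherever a position could be given. Slc25a17, a peroxisomal carrier, had the highest signal at 24.0 (chromosome 15, 81360839 to 81361256, midpoint 283 bp before the start). Cox7c followed with 23.96 (chromosome 13, 86046474 to 86046801). Sp3, a factor that binds GC boxes, had a signal of 23.96 over a region of 1073 bp centred 37 bp before its start. That region lay 63 bp from an H3K27ac region and 671 bp from a Pol II region, and its deposited p of 0.993 was the highest of the list, a value that other regions share. Atg3, an enzyme of autophagosome formation, shared a region of signal 23.2 with its neighbour Slc35a5. Ddx59 had 23.1, Pik3r3 (a regulatory subunit of PI 3-kinase) 22.9, Mrps36 (a protein of mitochondria) 22.5 and Ebag9 22.3. Lrrc41 and Uqcrh, the latter a subunit of respiratory complex III, shared 2 touching regions of signal 22.2, which lay 579 and 134 bp from an H3K27ac region. The positions given lay within 1.3 kb of a start, and none of these 10 regions overlapped an H3K4me3 or Pu.1 region.

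The lowest p-values also fell mostly on starts, and the 10 lowest were all wider than the median. The region between Azi2, an adaptor of the TBK1 kinase, and Zcwpw2 had the lowest deposited p, 0.000466, with a signal of 20.4 over 1031 bp (chromosome 9, 118040183 to 118041213). Homer1 had a p of 0.00148 over 932 bp (chromosome 13, 93303415 to 93304346) and Sbno1 a p of 0.00248 over 1095 bp. Of the 1635 regions, 43 (2.63%) had a deposited p under 0.05, against 1.27% of the whole cKO Ser5P list, and none had an adjusted value under 0.05. The authors named 213 of them primary (13.03%), against 7.2% of the whole list and 82 (4.78%) of the gene-end regions with Pol II or H3K27ac. The rule drew on the same list, so nothing is read from these shares. The widest region, 2166 bp at Jun (chromosome 4, 95049493 to 95051658), was the widest of the whole list and had a signal of 10.6. It also overlapped a region of the cWT Ser5P list, as did the next widest, at Rev3l, so neither is a site of the cKO list alone. Rev3l (the catalytic subunit of DNA polymerase zeta, 1553 bp), Snx13 (a sorting nexin, 1532 bp), Qars with Qrich1 (1454 bp) and Cited2 (a CBP and p300 binding co-regulator, 1449 bp) followed.

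A smaller set lay at the far end of genes and looked different. Of the 1635 regions, 118 (7.22%) met the window around a gene's far end and no listed start, 131 met both, 1083 met a start only, and 303 could not be resolved because the promoter table held no start for the gene or the listed start lay elsewhere. Far-end regions had a median signal of 7.53 (quartiles 6.01 and 9.79) against 12.4 (9.86 and 14.8) for those at starts. Of the far-end regions, 18.6% were at or above the median signal of all 1635, against 54.9% at starts. None of the 118 overlapped an H3K4me3 region (interval 0 to 3.08%), against 117 of the 1083 at starts (10.8%, 9.02 to 12.8%). Pu.1 ran the other way, with 8 of 118 (6.78%, 2.97 to 12.9%) against 20 of 1083 (1.85%, 1.13 to 2.84%), and 4 of those 8 lay at predicted genes of chromosome 14 named in the next paragraph. Of the far-end regions 1 was named primary, against 146 (13.5%) at starts. Overlap with H3K4me3 was not used to choose the regions or to place them. But H3K4me3 marks starts and far-end regions meet no listed start, so its absence there may follow from the placement.

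All 5 regions with the lowest signals were at far ends. Zfp36l1, an RNA-binding protein that shortens the life of AU-rich messages, had the lowest at 3.68 (chromosome 12, 80109675 to 80110206). The class I histocompatibility gene H2-D1 had 3.88, H2-Q4 had 3.93, Nhp2 with Rmnd5b had 4.03, and Tpt1, which encodes the translationally controlled tumour protein, had 4.14. H2-D1 and H2-Q4 belong to a family of near-identical genes, and how the authors' mapping split such reads was not tested. Of the far-end regions, 3 belonged to each of the immediate early, cytokine and NF-kB, myeloid transcription factor and disease-associated lists. These lists had 7, 6, 9 and 4 regions in all, and 7.22% of all the regions described were at far ends. Fos and Fosb counted in 2 of the lists, and Nfkbia and H2-D1 each gave 2 of the 3 regions of theirs. The cell cycle list had 2 far-end regions, and the splicing, proteasome, translation and Mediator lists had 1 each. The genes named next were picked with their values in view. Fos, an immediate early transcription factor, had a region of 1048 bp just past its gene (chromosome 12, 85477461 to 85478508, signal 5.49), 945 bp from a Pol II region and 3481 bp from an H3K27ac region. Fosb, of the same family, had a signal of 4.88 in its region (7712 bp from Pol II). Tnfaip3, an inhibitor of NF-kB signalling, had 5.84, and Nfkbia, the IkB alpha inhibitor, had 2 touching regions of 6.96. The cell cycle inhibitors Cdkn1a and Cdkn1b had 4.95 and 5.87, Btg2 had 9.48, and Spry1, an inhibitor of receptor kinase signalling, had 3 regions of 7.19, 7.19 and 5.57. The highest far-end signals were at Ms4a5 (16.1), Gm525 (15.8) and Gm2977 (15.8), the last near other predicted genes of chromosome 14 (Gm3050, Gm3752, Gm3558, Gm5797, Gm10338) that also had far-end regions and may share sequence.

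Genes with a far-end region were shorter, and a larger share of them had a cKO Pol II region elsewhere. Their median length was 12087 bp, against 25296 bp for genes with a region at the start. A cKO Pol II region lay within the gene or 2 kb around it in 42 of 120 such genes (35.0%, 26.5 to 44.2%), against 188 of 1228 (15.3%, 13.3 to 17.4%) for starts and 16.4% of all coding genes. The nearest Pol II region of either genotype was at a median of 27.4 kb from far-end regions and 71.3 kb from those at starts. The rule removed Ser5P regions that overlapped Pol II. A gene with a far-end region could still hold such a region at its start, so these contrasts may partly follow from the rule. They were seen first and then described, and were not tested.

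**Figure D2:**
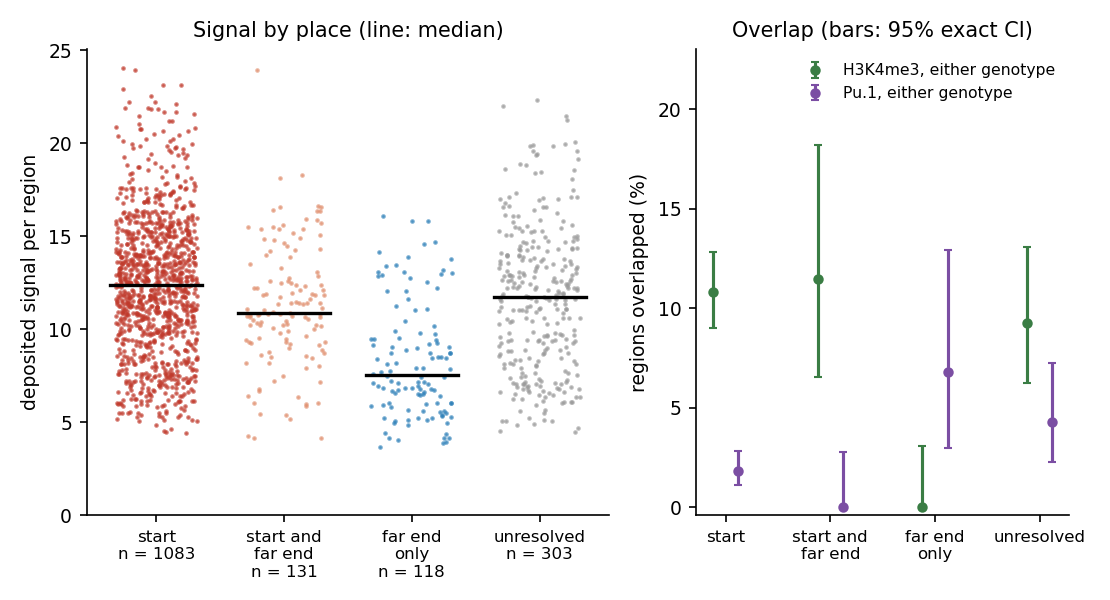
Left, deposited signal (axis from 0) of each of the 1635 regions by its place at the gene, with a line at the median; right, the percentage overlapped by an H3K4me3 (green) or Pu.1 (purple) region of either genotype, with 95% exact intervals. The far-end regions sit lowest, at a median of 7.53, and none of them overlaps H3K4me3.

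H3K4me3 was a measure that the rule did not use. Of the 1635 regions, 101 (6.18%, 5.06 to 7.46%) overlapped a cKO H3K4me3 region, against 4.71% of the whole cKO Ser5P list, and 65 (3.98%, 3.08 to 5.04%) overlapped a cWT one, against 3.13%. The gene-end regions with Pol II or H3K27ac gave 114 of 1717 (6.64%) and 86 (5.01%), with intervals that overlapped those of the regions described. Regions away from gene ends without Pol II or H3K27ac gave 29 of 1497 (1.94%) and 19 (1.27%). Overlap with 1 genotype's H3K4me3 only was split 95 cKO to 59 cWT, a cKO share of 61.7% (53.5 to 69.4%). That share is near the 61.5% that the cKO list makes of all 2165 H3K4me3 regions. The 5 highest signals over cKO H3K4me3 were at Siah1b (a ubiquitin ligase, 21.9), C1galt1c1 (a chaperone of O-glycosylation, 21.3), Eif2s3y (a translation initiation factor of the Y chromosome, 20.7), Evi5l (20.5) and Emc2 (of the membrane protein insertion complex, 18.6). Siah1b and C1galt1c1 are on the X chromosome and Eif2s3y is on the Y. The labels do not give the sex of the mice, and whether sex differed between the groups was not tested. Over cWT H3K4me3 the highest were Slc25a28 (20.7), Usp11 (a deubiquitinase, 19.7), Gcsh (of the glycine cleavage system, 17.5), Hip1 (16.7) and Limk1 (a kinase of actin turnover, 16.1).

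Pu.1 overlap was lower at these gene ends than away from them. A cKO Pu.1 region overlapped 40 of the 1635 (2.45%, 1.75 to 3.32%), against 4.88% of the whole list. The gene-end regions with Pol II or H3K27ac gave 42 of 1717 (2.45%), while the regions away from ends gave 130 of 1497 without Pol II or H3K27ac (8.68%, 7.31 to 10.2%) and 89 of 1314 with them (6.77%). The intervals at ends and away from ends did not overlap, and no test was made. The cWT Pu.1 list has 44 regions, and 1 of them overlapped a region here, at Gbp9, a guanylate-binding protein. The highest signals over cKO Pu.1 were at Unc93a (22.0), Sertad2 (20.3), Mbd5 (a methyl-CpG-binding domain protein, 19.8), Dnajc18 (18.4) and Psma3 (16.1). Genes of microglial function were among the others. Dock2, a Rac activator of migrating leukocytes, had 15.3, and Ctsc (cathepsin C) had 12.1. Cst3 (cystatin C) had 9.82 and C1qc 5.31. Neither H3K4me3 nor Pu.1 overlapped 1436 regions (87.8%), close to the 87.7% of the whole list. A cWT Ser5P region was overlapped by 7 regions (0.43%, against 0.21% of the whole list), Jun and Rev3l among them.

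**Figure D3:**
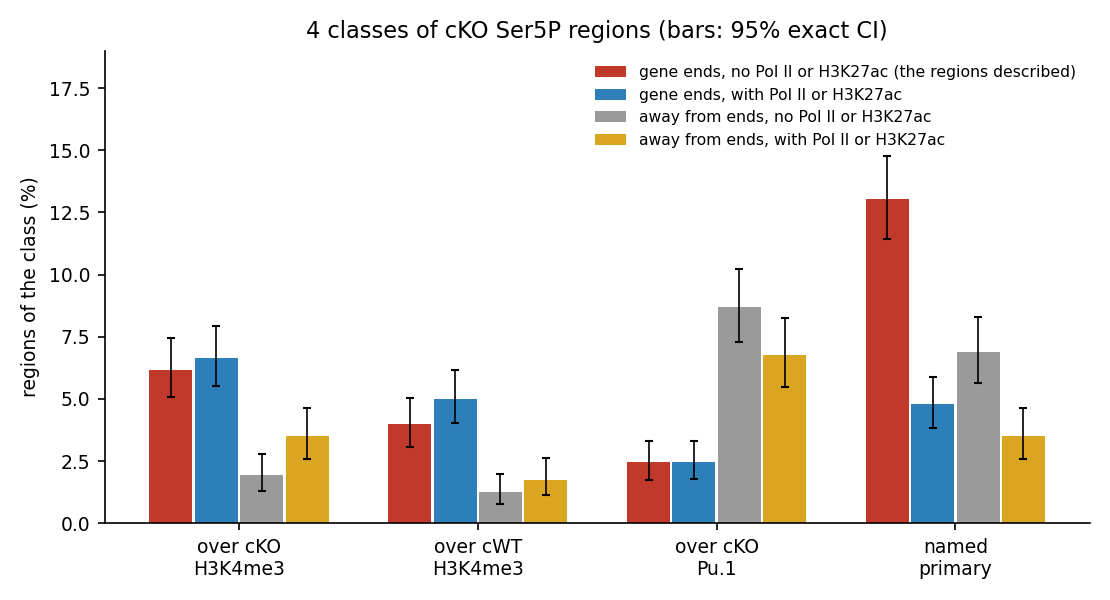
Percentage of regions that overlapped cKO H3K4me3, cWT H3K4me3 or cKO Pu.1, or that the authors named primary, in 4 classes of cKO Ser5P regions, with 95% exact intervals. The intervals of both gene-end classes (red, blue) overlap for H3K4me3 and Pu.1, while cKO Pu.1 reaches 8.68% in the class away from ends (grey).

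The regions touched the ends of 1900 of 21887 protein-coding genes (8.68%), and the gene-end regions with Pol II or H3K27ac touched 1962 (8.96%), with 149 genes in both sets. These percentages are the background for the gene lists that follow, which count genes with a region at an end. Most of the 1900 genes (1787) had 1 region, 109 had 2 and 4 had 3, namely Sec24c (a COPII coat protein), Rgs1 (a regulator of G-protein signalling), Spry1 and Ctsz (cathepsin Z). At Sec24c, Spry1 and Ctsz, 2 of the 3 regions touched with no base between them and carried the same signal. Some regions served more than 1 gene, with 336 at the ends of 2 genes and 23 at the ends of 3, and 173 lay between or over the starts of 2 divergent genes. Counts of genes therefore rest on fewer regions than genes.

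Genes for the transcription machinery itself were among those with a region. Of 35 genes for pausing, elongation and Integrator, 10 had one (28.6%, 14.6 to 46.3%) and 7 had a Ser5P region with Pol II or H3K27ac. The median signal of its 11 regions was 14.3, against 11.8 over all 1635. Tcea1, the elongation factor TFIIS, had a signal of 17.0 and Ell2 17.0 over 958 bp, 296 bp from an H3K27ac region. The PAF complex subunits Ctr9, Cdc73, Rtf1 and Paf1 had 16.6, 15.8, 13.9 and 6.66. The NELF subunits Nelfa and Nelfcd had 13.7 and 5.09, Ints3 had 14.3 and Ssrp1, of the FACT histone chaperone, had 8.84. Ell2 and Ssrp1 were also among the 7 with a Ser5P region that overlapped Pol II or H3K27ac. Of 28 genes for TFIIH and for kinases and phosphatases of the polymerase tail, 7 had a region (25%, 10.7 to 44.9%) and 3 another Ser5P region. Cdk9, the kinase of P-TEFb, had 2 regions, of signal 6.75 and 5.13, 738 bp before and 287 bp after its start, each under 300 bp from a Pol II region (288 and 232 bp). Cdk9 was also 1 of the 3 with another Ser5P region. Ccnk, a cyclin of CDK12 and CDK13, had 13.5, Rprd1b 15.1, Rpap2 (a serine 5 phosphatase) 14.6, Gtf2h5 13.3 and Gtf2h2 11.5. The regions of Ccnk, Rprd1b, Rpap2 and Gtf2h5 were each shared with a neighbouring gene (Setd3, Tti1, Glmn and Serac1). So were those of Paf1, Nelfcd and Ssrp1 (Med29, Ctsz and P2rx3). Of 33 genes for the general machinery, 6 had a region, led by Taf13 (a TFIID subunit, 15.7), Tbp (the TATA-binding protein, 14.5 in a region shared with Psmb1) and Polr2h (a polymerase subunit, 13.9). Mediator gave 4 of 30, with Med31 highest at 15.1, and 8 genes with another Ser5P region. The general machinery list had 5 genes with another Ser5P region. The regions of Polr2h and Med31 were shared with Clcn2 and 4930563E22Rik.

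Genes for splicing, protein synthesis and turnover, mitochondria and genome upkeep were counted against the same 8.68%. Another Ser5P region, with Pol II or H3K27ac, was counted against 8.96%. It lay at 7 splicing, 10 translation, 7 proteasome, 5 mitochondrial and 5 DNA repair genes of these lists. Core histones gave 5 such genes, the cell cycle 4, Polycomb and remodelling 6 and microRNA processing 4. Splicing factors gave 7 of 35, led by Srsf1 (19.4) and Sf3b2 (16.8). Cytosolic ribosomal proteins gave 9 of 46 on the list (19.6%, interval up to 33.9%) and 16 with another Ser5P region. Rpl5 had 17.4 and Rps13 16.2. Counted by symbol, Rpl and Rps genes gave 21 of 80 for each kind of region. Genes of this family have many processed copies, and read sharing among them was not tested. Translation factors and tRNA synthetases gave 9 of 39, with Eif5b at 17.6 in a region shared with Txndc9. At the low end, Eif5 had 4.15 in a far-end region. The proteasome gave 7 of 31, with a median signal of 15.2 over its 9 regions. The mitochondrial list gave 7 of 40 (17.5%, 7.34 to 32.8%), and mitochondrial ribosomal genes counted by symbol (Mrpl and Mrps) gave 8 of 78 (10.3%, 4.53 to 19.2%), near the background. DNA repair was at the background, with 3 of 35 (8.57%, 1.8 to 23.1%), namely Brca1 (16.3, shared with Nbr1), Parp2 (14.0) and Msh6 (12.8). Core histones gave 5 of 20 through 3 regions. Cell cycle genes gave 6 of 30, with Cdk2 highest at 14.9, and Polycomb and chromatin remodelling genes 6 of 32, with Eed, a subunit of Polycomb complex PRC2, highest at 11.5. MicroRNA processing gave 2 of 16. Those were Prkra, a partner of Dicer, with 19.5 in a region shared with Pjvk, and Ago1, an Argonaute protein, with 7.25.

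Microglial and stimulus-responsive genes also had such regions, at lower signals. Of 33 homeostatic microglial genes, 8 had one (24.2%, 11.1 to 42.3%) and 4 had another Ser5P region, and the median signal of the 8 regions was 8.98. Entpd1, the ATP-degrading CD39, had 11.2 in a region shared with Tctn3, Rhob 10.8, Cst3 9.82 and Tyrobp, the signalling adaptor of TREM2, 9.62. P2ry12, the purinergic receptor, had 8.35 in a region centred 2009 bp before its start and 642 bp from a Pol II region. The fractalkine receptor gene Cx3cr1 had 5.29 and Bin1 had 5.09. Myeloid transcription factors gave 8 of 26 (30.8%, 14.3 to 51.8%), with a median of 8.18 over 9 regions, and 6 genes with another Ser5P region. That list shares Jun, Egr1, Fos and Fosb with the immediate early and dissociation list, which gave 7 of 25 (28.0%, 12.1 to 49.4%) and 1 gene with another Ser5P region. The 7 immediate early regions had a median of 5.51, with Jun, whose region also overlapped a cWT Ser5P region, highest at 10.6 and Hsp90aa1 lowest at 4.86. Of these 7, 3 were at far ends, 1 (Jun) was at both ends and 3 were unresolved. The list holds genes that respond to tissue dissociation, and how the cells' isolation bears on it was not tested. Maf had 10.4, Bhlhe41 8.86, Cebpb 2 separate regions of 8.18 each and Klf4 6.98.

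Inflammatory genes and markers of other cell types were counted in the same way. Cytokines and NF-kB gave 5 of 36, with 10 holding another Ser5P region. Nfkbiz had 12.9 (shared with Nxpe3), Tnf 11.05 (970 bp from a Pol II region) and Il10ra, the interleukin 10 receptor, 4.47. The disease-associated microglial list gave 3 of 25 (Ank, Fabp5 and H2-D1), the interferon list 1 of 28 (Ifnar2, 10.3) and the lysosomal list 5 of 34. Another Ser5P region lay at 2, 2 and 8 genes of these lists. The regions of Ank and Ifnar2 were shared with Otulin and Il10rb. No marker gene of neurons (0 of 15), astrocytes (0 of 10) or oligodendrocytes (0 of 11) had one of the regions described. Nor did any marker of endothelial cells and pericytes (0 of 10) or other immune cells (0 of 15). The upper bounds of those intervals lie between 21.8 and 30.8%, above the 8.68% of all genes, so an absence is not shown. Slc1a3 (1 of 10 astrocyte genes) and Kdr (1 of 10 endothelial and pericyte genes) had another Ser5P region. Olfactory receptor genes gave 2 of 1110 (Olfr110 and Olfr111) and vomeronasal receptor genes 0 of 355. Of 397 Zfp zinc finger genes, 49 (12.3%) had a region and 43 (10.8%) another Ser5P region. Tmem119 and Spi1 had none at their ends, though each had another cKO Ser5P region there.

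**Figure D4:**
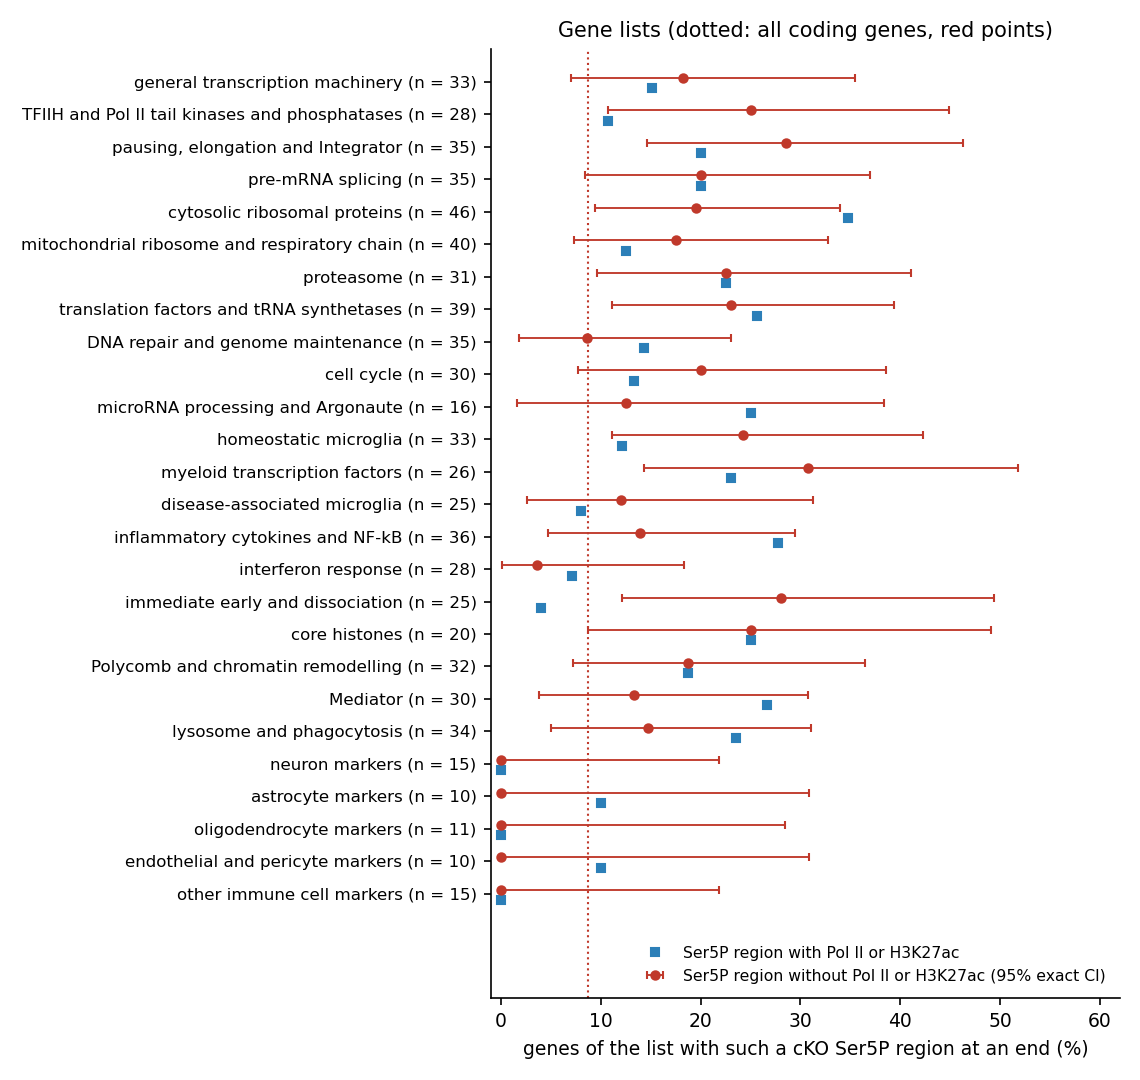
Percentage of genes of each list with a cKO Ser5P region at an end, without Pol II or H3K27ac (red, 95% exact intervals) or with them (blue), with a dotted line at 8.68%, the share of all coding genes with a red region. The lists for pausing and elongation, myeloid transcription factors and immediate early genes are highest, at 28.0 to 30.8%. Their intervals overlap those of lists just below, such as TFIIH and tail kinases (25%), core histones (25%) and homeostatic microglia (24.2%). The 5 lists of other cell types stand at 0 for red.

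Looking beyond the regions to whole genes, 334 of the 1900 genes (17.6%, 15.9 to 19.4%) had a cKO Pol II region within the gene or 2 kb around it, against 16.4% of all coding genes. A cWT H3K27ac region was there in 445 (23.4%, 21.5 to 25.4%), against 18.3%. None of the 4 excluding lists had a region in 1230 of the genes (64.7%), against 70.5% of all genes. The nearest Pol II region was at a median of 60.4 kb from the regions, with 97 of 1635 (5.93%) having one within 1 kb. The nearest H3K27ac region was at a median of 42.1 kb. All of these lists hold regions called specific to a genotype, so a gene without a listed Pol II region may have had Pol II alike in both genotypes. Absence from a list is not absence of the protein.

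The promoter sequences were described by 11 short motifs, each searched on both strands of 300-base promoter windows. The windows were those of starts over a region (1138 windows), over gene-end regions with Pol II or H3K27ac (1220) and of all listed coding starts (21238). They came from 1032, 1106 and 17469 genes, so 1 gene can count more than once. The ETS form CCGGAAG was in 25.9% of windows over the regions (23.4 to 28.6%), 22.8% over the other gene-end regions and 11.6% of all. The GC box GGGCGG gave 73.3, 74.8 and 46.2%. The NRF1 core GCATGCGC gave 8.79 (7.21 to 10.6), 5.82 (4.57 to 7.28) and 3.52%, the YY1 core AAGATGGC 6.77, 6.56 and 3.05%, the CRE TGACGTCA 4.48, 4.10 and 2.24% and the E-box CACGTG 12.4, 11.1 and 7.84%. The CCAAT box (CCAAT) gave 37.3, 42.4 and 38.2%. In contrast to these, the TATA box TATAAA was in 4.13, 5.08 and 12.6% and the AP-1 site TGACTCA in 3.25, 2.05 and 4.66%. The Pu.1 core GAGGAAGT gave 3.43, 2.70 and 3.13%. AGCAATA, which pairs with the miR-137 seed, gave 1.05, 1.31 and 1.69%. Windows over the regions had a median GC content of 62.3% and a CpG observed to expected ratio of 0.837, against 56.3% and 0.567 for all starts, and base composition alone can move such shares. Matches of different motifs may overlap within a window, and a match is a description of letters. In the printed promoters, the CCGGAAG form stands in Homer1 and Sf3b2, and the CRE, CCAAT and GC boxes together in Ell2.

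**Figure D5:**
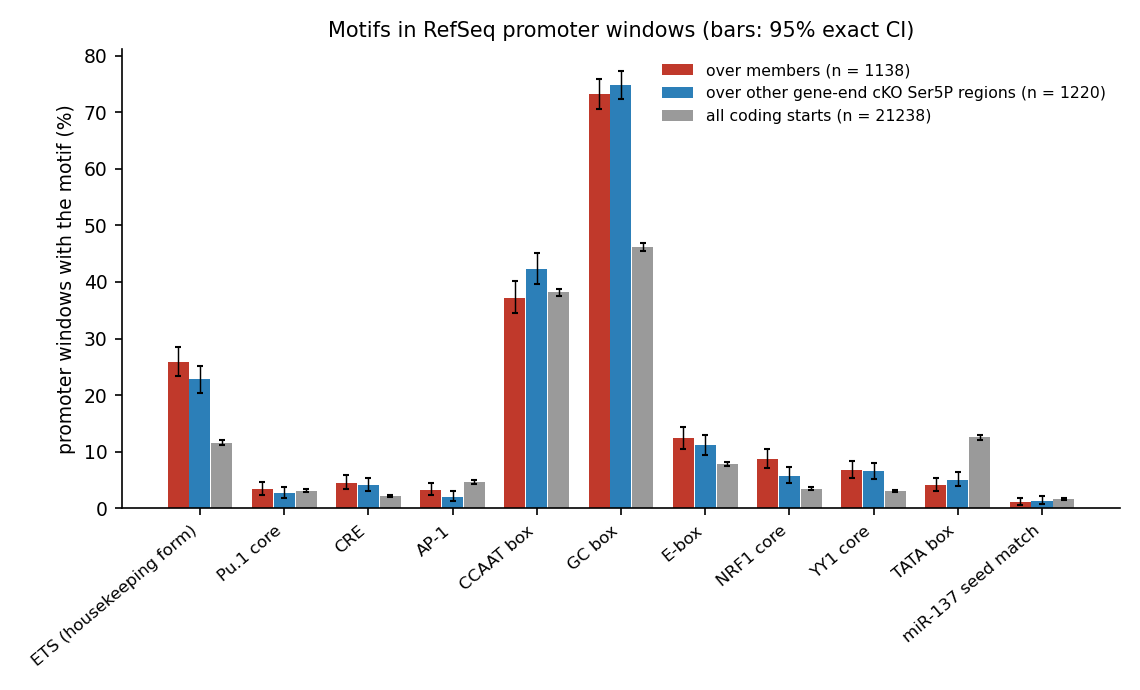
Percentage of RefSeq promoter windows (300 bases, both strands) with each of 11 motifs, for windows over the regions described (labelled members, red), over other gene-end cKO Ser5P regions (blue) and for all coding starts (grey), with 95% exact intervals. Red and blue bars stand close together, and both differ from grey most for the GC box, the ETS form and the TATA box.

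Some regions were pieces of longer intervals. Of the 1635, 104 (6.36%) touched another cKO Ser5P region with no base between them, against 358 (5.81%) of the whole list. All 104 carried the same signal as the region they touched. Sec24c had 2 such pieces at its start (chromosome 14, 20673994 to 20674359 and 20674360 to 20674647, both of signal 12.8) and another region, of 11.8, at its other end, shared with Fut11. Genes with regions at both ends numbered 37. The thresholds of the rule passed between near neighbours. Mtmr2, 1969 bp from an end, was kept, and Trpv2, at 2013 bp, was not. The region at Gm4832 that was kept touches a piece of the same signal, 11.2, that lay 2001 bp away and was left out. Ifngr2, the interferon gamma receptor chain, was kept although its region touches a Pol II region, while Atp13a3 was left out for a 2 bp overlap. By chromosome the regions numbered 10.01 per 100 coding genes on chromosome 17 and 4.14 on the X chromosome, with 1 region on the Y. They were 106 of the 325 cKO Ser5P regions on chromosome 17, 40 of 151 on the X and 1 of 12 on the Y, against 26.5% of the whole list. The X and Y held 2.51% of the regions and 2.64% of the whole list. Small RNA genes under a region were few, among them Mir484, Rnu7 and an arginine tRNA gene. Mir137 itself (chromosome 3, 118433857 to 118433929) had no region near it, and the closest was at Alg14, 2858 kb away, so the regions give no check of the deletion.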

How the data were processed

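CUT&Tag libraries of sorted microglia (30 samples, 10 groups of 3) were reduced by the authors to 10 lists of genotype-specific regions, pooled over replicates. Per the submitters' processing notes, the genome build was mm10 (GRCm38) and the tools included HOMER 4.11, bedtools 2.30.0, MACS2 2.2.7.1 and Bowtie2 2.4.4. Each deposited region carries a p-value with its adjusted value, a signal and a score. The score equals -125 times log2 of p, cut to a whole number of at most 1000, in every deposited list. Neither labels nor files state how signal and p-values were made.

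Regions sharing at least 1 bp counted as overlapping, and gene ends were the RefSeq gene bounds of 21887 protein-coding genes (GRCm38.p6). Starts and strands came from the RefSeq promoter table. Percentages carry exact Clopper-Pearson 95% intervals. No test between genotypes was made, since the lists are pooled and no value per replicate was analysed here. The overlap steps were tested on simulated intervals. The members and gene lists were chosen with earlier results of these data known. Named genes were the 10 with most regions, the 10 highest and 5 lowest signals, up to 4 per gene list, the 5 highest signals over each H3K4me3 and Pu.1 list, the 10 lowest p, the 5 widest, the 5 highest at 2 or more genes, 5 with regions at both ends, and Mir137, Spi1 and Tmem119. The far-end set, the printed promoters and any further genes named were picked with their values in view. Alternatives moved the gene-end window, the overlap rule, the p and width limits, merging, gene type and sex chromosomes. Python 3.11.15, numpy 2.4.6, pandas 2.3.3, scipy 1.17.1 and matplotlib 3.10.9 were used.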

Additional observations from a re-analysis of the deposited data

How the results depend on the processing

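No paired analysis was possible because the lists hold no value per replicate, and leaving out each replicate was not run for the same reason. Of 13 alternatives, 11 were planned and 2 (regions named primary, and regions not over a cWT Ser5P region) were chosen after seeing the data. Gene-end windows of 1 and 5 kb gave 23.7 and 30.2% of the cKO Ser5P list in place of 26.5%. Ends of all RefSeq genes gave 30.8% of the list, with 71.4% of regions at a start in place of 74.3%. Requiring an overlap of 50% gave 29.8% of the list, with 7.34% over H3K4me3 in place of 9.79% and 1.58% over Pu.1 in place of 2.51%. Counting regions within 1 kb as overlapping gave 23.8%, 11.7% and 3.55% for the same 3 values. Both overlap settings applied to the H3K4me3 and Pu.1 lists too, so the shares over those lists move partly by definition. The part of the list with the lower p (50% by rank) kept 1001 regions (32.5% of it) at 1209 genes, 77.5% of them at starts, with a median width of 447 bp. Regions with a deposited p under 0.05 left 43 (55.1%) at 57 genes, 90.7% at starts, 588 bp wide, with 14.0% over H3K4me3 and 6.98% over Pu.1. Regions named primary left 213 (48.0%) at 268 genes, 80.3% at starts, 542 bp wide, with 3.76% over Pu.1. The median width was 458 bp without regions under 300 bp and 418 bp with regions within 1 kb merged. Midpoints, leaving out chromosomes X and Y, and leaving out regions over cWT Ser5P moved none of these values past its interval or 1.5 times. Read depth is unknown, so what depth limits could not be assessed, and a region absent from a list may be present in both genotypes.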
